A study of Mus musculus with 16 samples.

Results

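The glucocorticoid receptor gene Nr3c1 and 6 genes that glucocorticoids are known to induce, Fkbp5, Tsc22d3, Zbtb16, Klf9, Sgk1 and Ddit4, were followed in spleen CD4 T cells of mice carrying a B cell lymphoma. These 7 genes were found by symbol among the 23479 genes of the count table, and all 7 passed the filter on low counts, as did 18430 genes in all. They were chosen on their levels in the 3 groups of libraries and on how they ran with Fkbp5 over the day 14 libraries. Their levels and differences between groups are therefore given as a description, with no test. RNA sequencing was done on libraries from C57BL/6 mice. In 7 libraries the mice had been given Eµ-Myc lymphoma cells, B cells transformed by a Myc transgene under the immunoglobulin heavy chain enhancer, and were sampled on day 7 after the transplant. In 4 libraries they were sampled on day 14, and 5 control libraries came from mice of the same strain without a tumour. CD4 T cells were the untouched fraction after other cells had been bound to magnetic beads, so they are the host's cells and do not carry the transgene of the transplant by design. No sex, age or drug treatment of the mice was given in the sources used here.

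The glucocorticoid receptor is a nuclear receptor that waits in the cytosol in a complex with Hsp90 and its co-chaperones. When it binds cortisol or, in mice, corticosterone, it moves to the nucleus and turns genes on from palindromic DNA elements, and it holds down many inflammatory genes that NF-kB and AP-1 drive. In T cells glucocorticoids are known for limiting cytokine production, for shaping trafficking through genes such as Cxcr4 and Il7r, and for killing immature thymocytes. Fkbp5 is the immunophilin that enters the Hsp90 complex and lowers the receptor's affinity for hormone, which makes it both a target and a brake. Tsc22d3 encodes GILZ, a leucine zipper protein that binds NF-kB and AP-1 subunits.

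The promoter windows of the members are shown first, because the palindromic element is the sequence by which the receptor binds many of its induced genes. Sequences are RefSeq's for GRCm38.p6, the 250 bases before each annotated transcript start, written 5′ to 3′ on the gene's strand. Windows for 5 of the 7 members were found, 12 windows in all. Zbtb16 and Nr3c1 were not matched. Capitals mark the hexamer AGAACA or its reverse complement TGTTCT, and the longer run in Sgk1 is the full palindromic element, AGAACA and TGTTCT with 3 bases of any kind between them. The Sgk1 window, 1 of 6 for that gene, is the member window with the full element. The Tsc22d3 window, 1 of 3, is the only one of that gene with the hexamer. Another 2 Sgk1 windows with a lone hexamer are not shown. The Fkbp5 and Ddit4 windows are those of the members whose day 14 levels stood above every day 7 level, and neither holds a match.
Sgk1, chr10:21993640-21993889, plus strand: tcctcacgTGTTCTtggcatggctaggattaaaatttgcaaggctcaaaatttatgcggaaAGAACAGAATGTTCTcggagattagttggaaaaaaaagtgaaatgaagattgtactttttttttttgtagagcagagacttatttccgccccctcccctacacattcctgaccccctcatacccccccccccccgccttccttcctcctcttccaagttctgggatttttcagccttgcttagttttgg
Tsc22d3, chrX:140600523-140600772, minus strand: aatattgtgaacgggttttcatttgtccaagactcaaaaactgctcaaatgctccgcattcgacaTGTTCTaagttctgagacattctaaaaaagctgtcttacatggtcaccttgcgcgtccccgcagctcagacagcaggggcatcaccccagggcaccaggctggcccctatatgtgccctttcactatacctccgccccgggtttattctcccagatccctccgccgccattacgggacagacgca
Fkbp5, chr17:28486150-28486399, minus strand: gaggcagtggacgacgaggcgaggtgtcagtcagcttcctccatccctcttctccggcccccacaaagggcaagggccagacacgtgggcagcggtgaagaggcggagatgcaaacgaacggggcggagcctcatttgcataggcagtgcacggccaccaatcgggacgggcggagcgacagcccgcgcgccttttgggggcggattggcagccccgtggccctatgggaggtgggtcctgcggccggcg
Ddit4, chr10:59951771-59952020, minus strand: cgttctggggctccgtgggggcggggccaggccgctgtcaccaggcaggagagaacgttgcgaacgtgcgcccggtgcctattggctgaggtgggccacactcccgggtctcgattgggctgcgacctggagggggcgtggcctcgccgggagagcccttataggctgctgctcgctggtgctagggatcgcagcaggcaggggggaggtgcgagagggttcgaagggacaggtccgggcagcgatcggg

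The full element lay in the Sgk1 window from 189 to 175 bases before that transcript's start, at chr10:21993701-21993715, inside the Sgk1 gene but in none of its exons. Both strands were searched. Of 32851 windows of the same length over 27025 genes, 3 held the full element, 0.00913%. A relaxed form, GNACA and TGTNC with 3 bases of any kind (N) between them, which the full element contains, was in 127 windows, 0.387%. Among the 18 other glucocorticoid-induced genes in the table, 2 held the relaxed form and none the full one. These are Txnip, the thioredoxin-interacting protein, at chr3:96557707-96557956, and the metallothionein Mt1, at chr8:94178839-94179088, both on the plus strand. The match is shown in capitals with its flanks.
Txnip: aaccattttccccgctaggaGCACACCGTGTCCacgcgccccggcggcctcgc
Mt1: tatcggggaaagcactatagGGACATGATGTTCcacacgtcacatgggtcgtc
The hexamer alone was in 16.1% of all windows and in 4 of the 12 member windows, 3 of the 6 of Sgk1 and 1 of the 3 of Tsc22d3. Matches are descriptions of the letters and not of binding, and 250 bases before a start leave distal and intronic elements unread.

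The libraries held 14493764 to 27340070 counts in genes. Between 47.06% and 69.78% of a library's reads lay outside gene models, 47.06% to 56.67% in controls, 54.63% to 67.97% at day 7 and 54.41% to 69.78% at day 14. Levels below are in CPM, counts brought to a common library size, after TMM scaling, which corrects for differences in library composition. T cell markers were high throughout. Mean levels of Cd3e, which belongs to the signalling part of the T cell receptor, were 1386 ± 291, 1447 ± 267 and 1130 ± 320 CPM in the control, day 7 and day 14 groups (SD, n = 5, 7 and 4), and those of Cd4 were 1261 ± 329, 1531 ± 216 and 1194 ± 205. Of the 2 CD8 T cell markers, Cd8a was at 1.35 ± 0.957, 0.456 ± 0.438 and 0.671 ± 0.430 CPM. Cd8b1 was higher, at 13.3 ± 4.06, 14.0 ± 2.28 and 10.6 ± 3.75 CPM. Of 7 CD4 T cell markers 6 were found, with summed levels of 2533 to 5027, 3574 to 5448 and 2760 to 4149 CPM.

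Several libraries stood apart from their group. Controls 1 and 2 and library 4 of day 14 had summed levels of the 10 neutrophil markers of 789, 2385 and 1395 CPM, against 1.38 to 52.4 CPM in the other 13. In day 14 library 4 most of that sum was the markers Mpo, at 1226 CPM, and Elane, at 146. The markers S100a8 and Ltf were at most 2.96 and 2.47 CPM at day 14, but reached 549 and 153 in the control group. The 6 markers of dividing cells summed to 1682 and 3877 CPM in the same controls and to 263 to 445 in the other 3. At day 7 they summed to 168 to 636 CPM, and at day 14 to 349, 1117, 901 and 1819. The Y-linked gene Ddx3y was at 154 to 209 CPM in 5 libraries, namely controls 1 and 2, libraries 6 and 7 of day 7, and library 4 of day 14. Elsewhere it was at or below 2.87 CPM. Day 14 library 1 had neither Ddx3y, at 0, nor a usual level of Xist, the RNA of the inactive X chromosome, which was at 9.32 CPM against 1625 or more in the other libraries without Ddx3y. Summed markers of NK and innate-like T cells, 10 genes, ran from 117 to 176 CPM in controls, 128 to 177 at day 7 and 111 to 188 at day 14. The 8 B cell markers summed to 14.5 to 76.8, 16.4 to 33.0 and 18.8 to 42.8 CPM, and the 8 macrophage and monocyte markers to 9.54 to 593, 19.3 to 48.0 and 27.0 to 99.9. No marker of any list was at 0 in every library of a group, and the part of any of these differences in the results below was not tested. In bulk libraries, fewer cells of a type and less RNA per cell cannot be told apart.

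The receptor gene itself held a narrow range in all 3 groups. Nr3c1 (GENCODE, GRCm38, chr18:39410545-39519421, minus strand) was at 199, 166, 232, 209 and 203 CPM in control libraries 1 to 5. At day 7 its lowest, median and highest levels were 198, 205 and 236 CPM. At day 14 it was at 167, 189, 191 and 174 CPM in libraries 1 to 4. All 4 day 14 libraries lay below all 7 of day 7, while both overlapped the controls. Group means were 201.6 ± 23.8, 212 ± 14.96 and 180.1 ± 11.8 CPM (SD, n = 5, 7 and 4). The log2 difference was 0.07 ± 0.09 (SE) for day 7 against control, -0.16 ± 0.10 for day 14 against control and -0.23 ± 0.09 for day 14 against day 7. Scaled by library totals alone, the 2 day 14 differences were 0.04 and -0.07. That scaling moved the median of all genes by 0.203 for day 14 against control and by 0.162 against day 7, so relative to the other genes Nr3c1 stayed lower.

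Fkbp5 (chr17:28399094-28517527, minus strand), the receptor's co-chaperone and a standard readout of its activity, was highest at day 14. Controls were at 49.0, 55.5, 61.4, 61.0 and 64.9 CPM, and day 7 libraries at 37.6 to 56.3 with a median of 50.7. Day 14 libraries 1 to 4 were at 183, 58.9, 75.9 and 169 CPM. Libraries 1 and 4 stood far above the rest, library 3 was just above the highest control, and library 2 was within the control range but above every day 7 library. Means were 58.4 ± 6.22, 48.7 ± 6.57 and 122 ± 63.4 CPM. The log2 difference was 1.06 ± 0.24 (SE) against control and 1.32 ± 0.22 against day 7. Without libraries 1 and 4 these values were 0.22 ± 0.18 and 0.46 ± 0.17. Library 1 is the one with low Xist and no Ddx3y and with the largest share of reads outside gene models. Library 4 is the one with a high sum of neutrophil markers, mostly Mpo and Elane. The part of either in the Fkbp5 level was not tested. Day 7 differed from control by -0.26 ± 0.21 (log2), with 3 of 7 day 7 libraries below the lowest control.

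**Figure D1:**
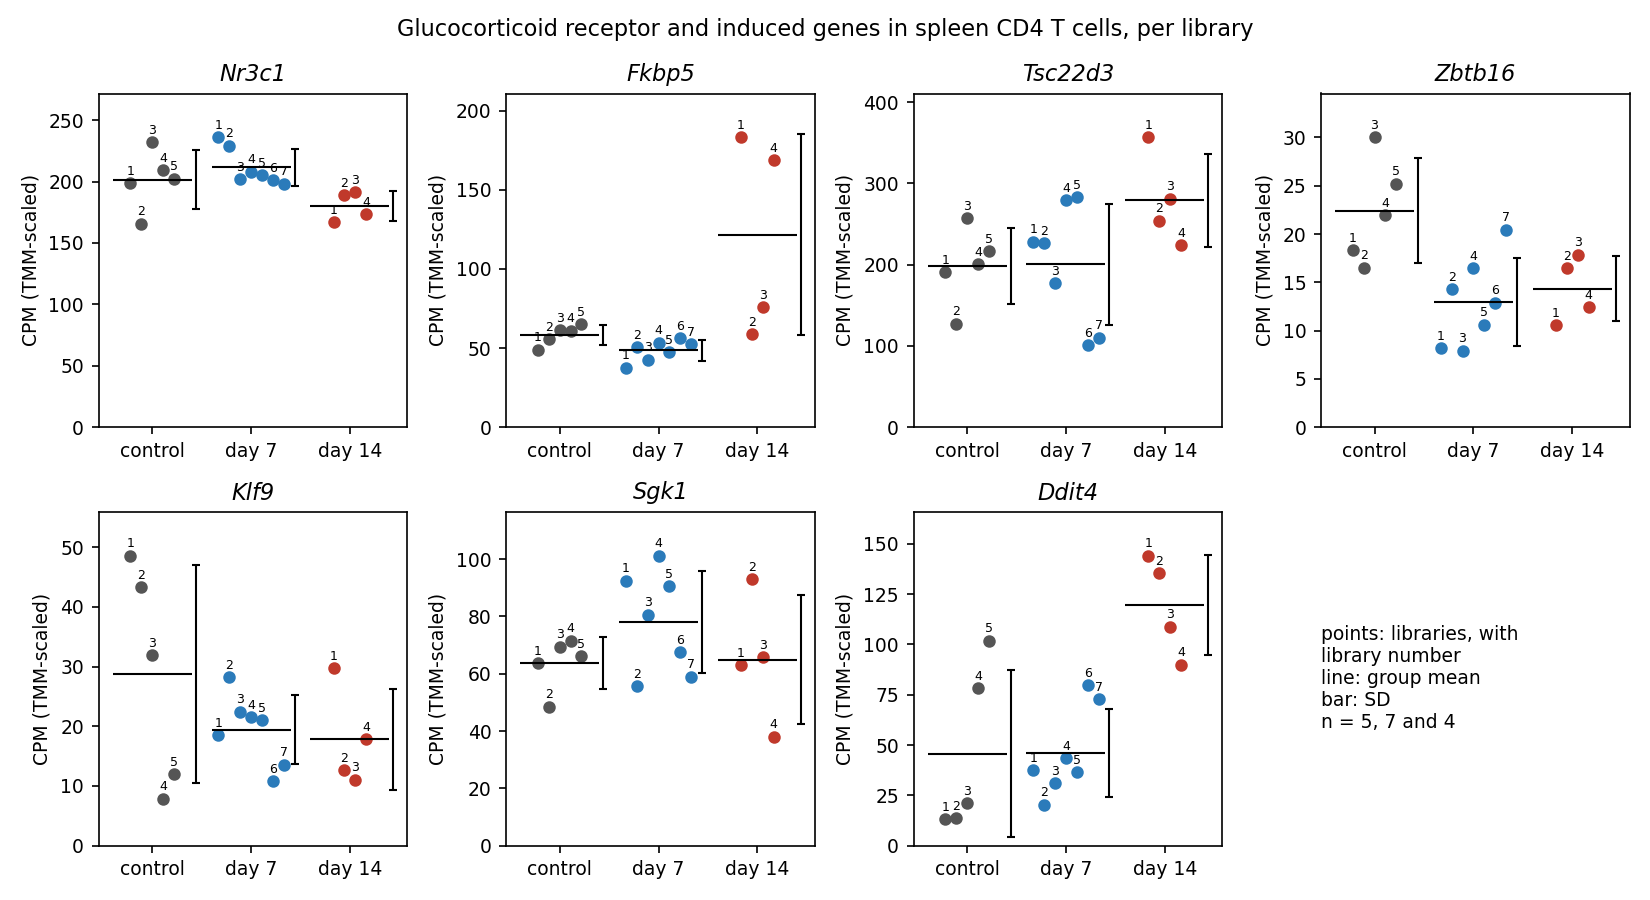
Level of each of the 7 genes in every library, in TMM-scaled CPM, for control (n = 5), day 7 (n = 7) and day 14 (n = 4); points carry the library number, the line is the group mean and the bar is the SD. Fkbp5 is high in day 14 libraries 1 and 4, Ddit4 in all 4 day 14 libraries, and Klf9 and Ddit4 split the controls in opposite ways.

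Tsc22d3 (chrX:140539528-140600659, minus strand), the gene of GILZ, had its highest mean at day 14 but with overlap throughout. Controls were at 190.5, 127, 257, 200.3 and 216 CPM. The day 7 libraries ran from 101 to 283 CPM with a median of 226. Day 14 libraries were at 357, 254, 281 and 224 CPM. Day 14 library 1 was the highest of all 16, and day 7 libraries 6 and 7, at 101 and 110.1 CPM, were the lowest. Means were 198 ± 47.1, 201 ± 74.3 and 279 ± 57.0 CPM. On the log2 scale day 14 differed by 0.49 ± 0.27 (SE) from control and by 0.48 ± 0.25 from day 7. For day 7 against control it was 0.02 ± 0.24.

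Ddit4 (chr10:59949669-59951834, minus strand), whose product REDD1 restrains mTORC1 and which low oxygen and DNA damage also induce, was high in every day 14 library. Day 14 libraries 1 to 4 were at 144, 135, 109 and 89.9 CPM, against 20.4 to 79.7 at day 7 (median 37.5). Every day 14 library was above every day 7 library, and 3 of 4 were above every control. Controls were at 13.1, 13.8, 21.2, 78.3 and 102 CPM. Control libraries 4 and 5 thus stood well above controls 1 to 3, and day 7 libraries 6 and 7, at 79.7 and 72.7 CPM, stood above the other day 7 libraries. Means were 45.7 ± 41.5, 45.9 ± 21.95 and 120 ± 24.8 CPM. Log2 differences were 1.39 ± 0.52 (SE) against control and 1.38 ± 0.47 against day 7. Without control libraries 1 and 2 the first was 0.83 ± 0.43. Without day 14 libraries 1 and 4 they were 1.40 ± 0.65 and 1.38 ± 0.61, so the Ddit4 difference, unlike that of Fkbp5, was as large without those libraries.

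Klf9 (chr19:23141226-23168134, plus strand), a Krüppel-like transcription factor that glucocorticoids and thyroid hormone induce, varied widely within the controls, with a coefficient of variation of 63.5%. Its control levels were 48.6, 43.3, 31.9, 7.87 and 11.99 CPM. Day 7 libraries ran from 10.8 to 28.2 CPM with a median of 21.0, and libraries 6 and 7 were the lowest. Day 14 libraries were at 29.7, 12.7, 11.1 and 17.8 CPM. Controls 1 to 3, where Ddit4 was low, were the 3 highest Klf9 libraries of all, and controls 4 and 5 were among the lowest. Means were 28.7 ± 18.3, 19.4 ± 5.82 and 17.8 ± 8.45 CPM, and no 2 groups separated. Log2 differences were -0.57 ± 0.37 (SE) for day 7 and -0.69 ± 0.44 for day 14 against control. Without control libraries 1 and 2 these were 0.17 ± 0.37 and 0.04 ± 0.41, so the sign of both rests on those libraries.

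Zbtb16 (chr9:48654297-48836222, minus strand) encodes PLZF, the transcription factor that directs innate-like T cells such as NKT cells and that glucocorticoids also induce. Its levels in lymphoma-bearing mice lay mostly below those of the controls. Controls were at 18.4, 16.5, 30.0, 21.96 and 25.2 CPM. At day 7 the lowest, median and highest levels were 7.92, 12.9 and 20.5 CPM, and at day 14 the libraries were at 10.6, 16.5, 17.9 and 12.5. Below the lowest control lay 6 of 7 day 7 libraries and 3 of 4 of day 14. Means were 22.4 ± 5.43, 12.98 ± 4.54 and 14.3 ± 3.39 CPM. As log2 differences these were -0.79 ± 0.23 (SE) for day 7 and -0.64 ± 0.27 for day 14 against control, and 0.14 ± 0.25 between the 2 times. The summed NK and innate-like T cell markers had medians of 157, 144 and 171 CPM over the same groups. Most of that sum was Il18r1, at 86.5, 104 and 97.5 CPM on average. Every other marker of the list, all of them scarcer, had a lower mean at day 7 than in controls, as Zbtb16 did. The NK receptor gene Klrk1, at 10.3 ± 0.914, 4.07 ± 2.00 and 8.75 ± 3.77 CPM, and the granzyme gene Gzma, at 4.24 ± 2.39, 1.01 ± 0.592 and 1.18 ± 0.295, were among these. Ncr1, Klre1 and Klra7 went from control means of 0.698, 0.917 and 1.19 CPM to day 7 means of 0.244, 0.360 and 0.437. Cd160 went from 8.13 to 6.17 CPM and Eomes from 27.99 to 24.3, both within the control SD. Day 14 means of these markers were also below control. Klrb1c, at 5.63 ± 2.43, 5.24 ± 1.84 and 8.44 ± 2.41, and Il18rap, at 6.78 ± 3.57, 5.83 ± 2.04 and 12.3 ± 4.76, changed little at day 7. Both had their highest means at day 14. The part of any of these markers in the Zbtb16 level was not tested.

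Sgk1 (chr10:21882184-21999903, plus strand) is the serum- and glucocorticoid-regulated kinase that shapes ion transport and helper T cell differentiation. It had the full element in 1 of its 6 promoter windows but no level at day 14 that set it apart. Controls were at 63.6, 48.6, 69.5, 71.5 and 66.1 CPM. Day 7 libraries ran from 55.8 to 101 CPM with a median of 80.6, and 4 of 7 were above every control. Day 14 libraries were at 63.1, 93.0, 65.7 and 38.0 CPM, with library 4 the lowest of all 16. Means were 63.9 ± 9.09, 78.2 ± 17.7 and 65.0 ± 22.5 CPM. The log2 difference was 0.29 ± 0.19 (SE) for day 7 and 0.02 ± 0.21 for day 14 against control, and -0.27 ± 0.20 between the 2 times.

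**Figure D2:**
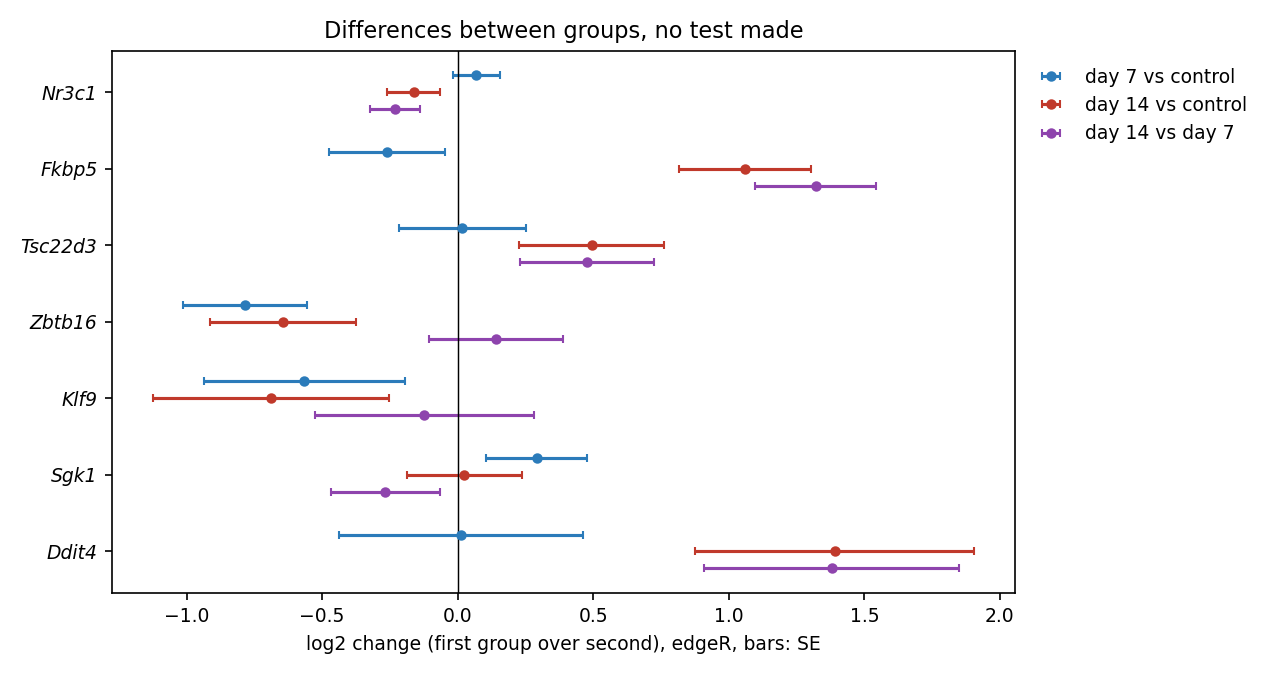
Log2 difference of each member between groups from the edgeR fit to all 16 libraries, with bars for the standard error; values right of 0 are higher in the first group named. Fkbp5 and Ddit4 have day 14 differences of 1.06 to 1.39, Zbtb16 and Klf9 lie at -0.57 to -0.79 against control at both times, and Nr3c1 stays within 0.23 of 0.

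For day 14 against day 7, 2 of the 7 members had every day 14 library above every day 7 library, Fkbp5 and Ddit4, and 1 had every one below, Nr3c1. Over all 18430 genes tested the shares were 1.77% and 2.78%. Against control neither held for any member at day 14, beside 5.24% of genes above and 2.85% below. Nor did either hold at day 7 against control, beside 0.988% and 0.982%. Since the members were chosen on these levels, nothing is read from these counts. The median log2 difference of the members was 0.01 for day 7 against control, 0.02 for day 14 against control and 0.14 for day 14 against day 7, beside 0.07, 0.12 and 0.12 over all genes tested. The comparisons share libraries, so their values are not independent of each other.

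Levels of different genes were compared per kilobase of exon. In controls Tsc22d3 was highest, at 45.7 ± 10.8 CPM per kilobase (SD, n = 5), followed by Nr3c1 at 26.2 ± 3.10 and Ddit4 at 26.0 ± 23.7, which did not differ beyond their spread. The spread of Ddit4 in controls also reached Tsc22d3 above it and Sgk1 below it, so it has no firm place in the order. Sgk1 followed at 13.03 ± 1.85. Fkbp5 at 6.16 ± 0.657, Klf9 at 5.97 ± 3.79 and Zbtb16 at 4.24 ± 1.03 came last, and Klf9 overlapped both of its neighbours. At day 14 Ddit4, at 68.1 ± 14.2, and Tsc22d3, at 64.3 ± 13.1, were the highest, and these 2 did not differ beyond their spread. Nr3c1 was then at 23.4 ± 1.54, Sgk1 at 13.3 ± 4.58, Fkbp5 at 12.9 ± 6.69, Klf9 at 3.70 ± 1.75 and Zbtb16 at 2.72 ± 0.642. The transcript of the receptor thus exceeded that of Fkbp5 per kilobase in both groups.

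Within day 14 the members did not all follow Fkbp5. With 4 libraries no correlation was computed, and the levels above are compared library by library. Klf9 was higher in libraries 1 and 4, where Fkbp5 was high, than in libraries 2 and 3. Nr3c1, Zbtb16 and Sgk1 were each lower in libraries 1 and 4 than in libraries 2 and 3. Tsc22d3 was highest in library 1 and lowest in library 4, and Ddit4 was also highest in library 1 and lowest in library 4. High Fkbp5 thus went with the highest day 14 levels of both Tsc22d3 and Ddit4 in library 1, and with the lowest of both in library 4. Even in library 4 Ddit4 was above every day 7 library.

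The members' day 7 levels were known when they were chosen, so the correlations below describe these libraries and support nothing by themselves. Over the 7 day 7 libraries Fkbp5 and Zbtb16 had a Pearson r of 0.811 (exact permutation p = 0.0284, adjusted p = 0.170) and a Spearman rho of 0.714 (exact permutation p = 0.0881, adjusted p = 0.417). Over the 5 libraries left without the 2 farthest from the median of Fkbp5, libraries 1 and 3, r was 0.427, and no test was made on so few. For Nr3c1 r was -0.550 (exact permutation p = 0.178, adjusted p = 0.438) and rho was -0.500 (exact permutation p = 0.267, adjusted p = 0.533). Without libraries 1 and 3 its r was -0.296, and without library 1 alone it was 0.017. For Sgk1 r was -0.428 (exact permutation p = 0.337, adjusted p = 0.438) and rho was -0.214 (exact permutation p = 0.662, adjusted p = 0.662), and without the same 2 libraries r was -0.190. The tests were 2-sided and adjusted over 6 genes for each measure, and none of the 6 passed 0.05. For Tsc22d3, Klf9 and Ddit4 no pooled r is given, because by the levels of these genes day 7 libraries 6 and 7, the pair with Ddx3y, lie in a cluster of their own. The same pair is in the values for Zbtb16, Nr3c1 and Sgk1, and Fkbp5 itself was highest in library 6, at 56.3 CPM. Those permutation tests treat all 7 libraries as alike. The other 5 libraries are too few to test those genes within.

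The genes whose levels ran most like those of Fkbp5 were sought over all 16 libraries among the 8439 genes whose mean reached 10 CPM, by Pearson's r of log2(CPM + 1), as a description. Predicted genes were counted in the 8439 but passed over in the ranking. The first 6 were then Rab27a, a small GTPase of vesicle secretion (r = 0.928), Coro2a, an actin-binding coronin (0.927), Ston1, an endocytic adaptor (0.923), Bcl2, the survival factor (0.855), Arl5a, a small GTPase (0.832), and Neb, the gene of nebulin (0.825). The genes are measured in the same libraries, so the points share depth and composition. Without day 14 libraries 1 and 4 (n = 14) the values were 0.695, 0.714, 0.680, 0.598, 0.503 and 0.5263. Over control and day 7 libraries alone (n = 12) they were 0.709, 0.516, 0.485, 0.385, 0.330 and -0.162. Rab27a thus had a like value without any day 14 library, whereas Neb did not. In day 14 libraries 1 to 4 Rab27a was at 176, 112, 114 and 209 CPM, against 115 ± 11.52 in controls. Bcl2 was at 724, 351, 524 and 619 CPM, against 342 ± 79.3, and Neb was at 472, 160.2, 423 and 467 CPM, against 44.2 ± 5.79. By the same measure Ddit4 had r = 0.546 with Fkbp5 and ranked 156th with predicted genes passed over, Tsc22d3 had 0.360, Zbtb16 and Klf9 had -0.002 and -0.016, Sgk1 had -0.551 and Nr3c1 had -0.653.

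**Figure D3:**
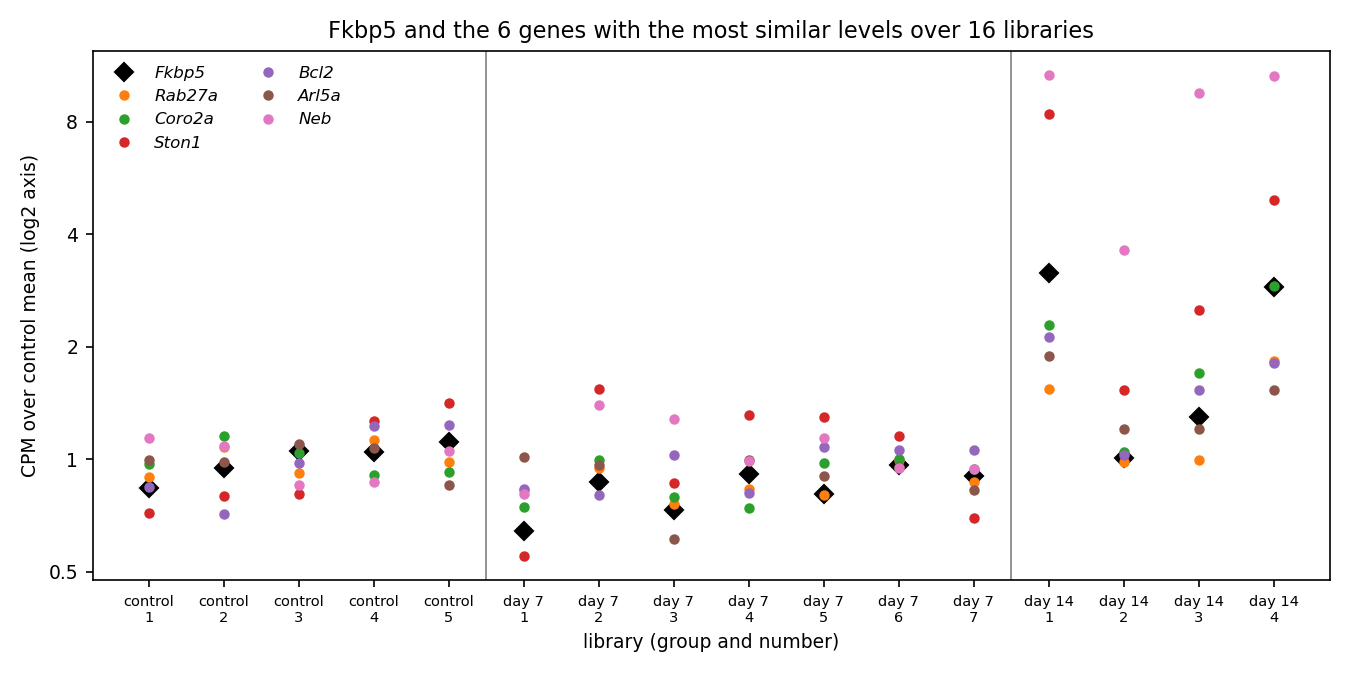
CPM of Fkbp5 (black diamonds) and the 6 genes most like it in each of the 16 libraries, divided by each gene's control mean, on a log2 axis. All 7 genes are above their control mean in day 14 libraries 1 and 4, and most lie near 1 in the control and day 7 libraries.

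Other genes of the pathway, none of them a member, were taken from 3 lists and tested with edgeR's quasi-likelihood test over all 18430 genes. The lists held 23 genes of the receptor's machinery (chaperones, co-regulators, hormone handling), 24 other glucocorticoid-induced genes and 14 genes that glucocorticoids repress, and 60 of the 61 were tested. For day 14 against control 3 of the 60 passed an adjusted p of 0.05, all higher, beside 3.13% of all genes called, 1.33% higher and 1.80% lower. Against day 7 it was 2 of 60, both higher, beside 0.966% of all genes, 0.412% higher and 0.553% lower. At day 7 none was called against control, beside 0.0109% of all genes. At an unadjusted p under 0.05 the day 7 comparison had 1 list gene higher and 19 lower, beside 8.43% and 12.7% of all genes. DESeq2 called 10 list genes lower and none higher, beside 8.26% and 3.71% of the genes it tested, and limma-voom called none, beside 3 of all genes. Without control library 5 edgeR called 11 lower and none higher, beside 5.58% and 2.33% of all genes. Against control at day 14, 2 of the 60 were called without control libraries 1 and 2, beside 942 of all genes. Without day 14 libraries 1 and 4 it was also 2, beside 15 of all genes. None was called at day 14 against control in a fit to these 2 groups alone or with the replicate number as a block. Those fits called only 4 and 46 of all genes.

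In the receptor machinery, Nr3c2, the mineralocorticoid receptor, which binds the same hormone with higher affinity, rose at day 14. Its control levels were 3.52, 1.85, 2.07, 0.602 and 2.84 CPM, day 7 levels ran from 1.72 to 4.31, and day 14 levels were 5.87, 5.28, 7.74 and 9.74. Every day 14 library was above every other library. The log2 change was 1.71 ± 0.41 against control (edgeR adjusted p = 0.0359) and 1.58 ± 0.38 against day 7 (adjusted p = 0.0499). The call against control was lost without day 14 library 1, 3 or 4 or control library 3 (adjusted p = 0.0741, 0.117, 0.0905 and 0.0797). The call against day 7 was lost in 9 of 11 fits that left out 1 library, all but those without day 7 library 2 or day 14 library 2. Both calls were also lost without day 14 libraries 1 and 4 (edgeR adjusted p = 0.312 and 0.672) and with the replicate block (0.117 and 0.220). The first was lost in a fit to the 2 groups alone (0.126) and the second without an expression filter (0.0626). Overlap with an antisense transcript, Gm10649, covers 247 bases of its exons, and the strand setting of the counting was not given.

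Abcb1a, the drug efflux pump that exports glucocorticoids, was at 29.7 ± 5.26 CPM in controls and 61.1 ± 24.3 at day 14. Day 14 libraries were at 28.8, 86.9, 68.9 and 59.8 CPM, so library 1, with the highest Fkbp5, was within the control range and the other 3 were above it. The log2 change was 1.04 ± 0.28 (edgeR adjusted p = 0.0478), and the call was kept only without day 14 library 1 among the 9 fits that left out 1 library (adjusted p = 0.0520 to 0.149 in the other 8). It was also lost without an expression filter (edgeR adjusted p = 0.0512), in a fit to the 2 groups alone (0.121) and with the replicate block (0.100). The same held without control libraries 1 and 2 (0.0577) and with limma-voom (limma-voom adjusted p = 0.0546). The Hsp90 side of the complex did not pass edgeR's test over all libraries. Fkbp4, the co-chaperone that carries the receptor to the nucleus, was at 146 CPM in controls, 82.9 at day 7 and 89.7 at day 14, with log2 differences of -0.82 ± 0.22 (edgeR adjusted p = 0.0777) and -0.71 ± 0.26 (adjusted p = 0.124) against control. Hsp90aa1 and Hsp90ab1, the chaperones themselves, differed by -0.71 ± 0.29 and -0.51 ± 0.21 at day 14 (edgeR adjusted p = 0.166 and 0.162). Each of the 3 passed in 1 of 20 alternatives at day 14 against control, Hsp90aa1 without control library 5 (adjusted p = 0.0489) and Hsp90ab1 and Fkbp4 without day 14 library 2 (0.0449 and 0.0439). Within the controls Hsp90aa1 ran from 327.5 to 1268 CPM, with control library 2 the highest. Without that library its difference was -0.43, and the smallest in any alternative was -0.25. Of the whole list DESeq2 called 4 genes lower at day 7, and 3 higher and 2 lower at day 14, against control. It called 2 higher at day 14 against day 7. Of all genes it tested, 8.26% were lower at day 7, and 4.41% higher and 3.15% lower at day 14, against control. The share higher at day 14 against day 7 was 2.71%. The co-chaperone p23, from Ptges3, differed by -0.27 ± 0.16 (adjusted p = 0.302), the coactivator Ncoa2 by -0.03 ± 0.12 (0.879) and the corepressor Ncor1 by -0.16 ± 0.12 (0.433). The median of the list was -0.17 for day 14 against control, with 5 of 23 log2 differences above 0, beside a median of 0.12 over all genes.

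No other glucocorticoid-induced gene passed edgeR's test in any comparison. Of the 24, at an unadjusted p under 0.05, 0 were higher and 10 lower for day 7 against control, 1 higher and 3 lower for day 14 against control, and 6 higher and 2 lower for day 14 against day 7. Over all genes the shares higher and lower were 8.43% and 12.7%, 10.5% and 11.8%, and 6.54% and 8.27%. DESeq2 called 4 lower at day 7, 1 higher and 1 lower at day 14 against control, and 1 higher at day 14 against day 7. Beside these it called 4.41% of its genes higher and 3.15% lower at day 14 against control, and 2.71% and 2.64% against day 7. Called by limma-voom were none of the 24, beside 3, 1003 and 189 of all genes in the 3 comparisons. List medians of the log2 difference were -0.285, -0.21 and 0.04, beside 0.07, 0.12 and 0.12 over all genes. Nearest to the threshold at day 14 against control were Errfi1, a feedback inhibitor of the EGF receptor, at 21.8 CPM in controls and 9.03 at day 14, a log2 difference of -1.27 ± 0.35 (edgeR adjusted p = 0.0534), and Rgs2, a regulator of G protein signalling, at 282 and 100.4 CPM, -1.49 ± 0.47 (adjusted p = 0.0788). Both were named after their values were seen. Within the fixed panel the nearest was Il7r, the interleukin-7 receptor chain that glucocorticoids raise in T cells. It was at 262, 177, 328, 359 and 384 CPM in controls and at 658, 321, 393 and 484 at day 14, a log2 difference of 0.62 ± 0.19 (edgeR adjusted p = 0.0793). Library 1, again the highest for Fkbp5, was the highest for Il7r, and without it the difference was 0.40. Il7r passed 0.05 in 4 of 20 alternatives, library totals (adjusted p = 0.0295), DESeq2 (0.0244), and edgeR without day 14 library 2 or without control library 5. Cxcr4, the chemokine receptor, was at 113, 120, 119 and 205 CPM at day 14 and at 26.5 to 99.2 at day 7, with no overlap between those groups, yet its log2 difference of 1.09 ± 0.39 did not pass the test (edgeR adjusted p = 0.177).

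Per1, a clock gene with a well-known glucocorticoid response, split the libraries as Klf9 did. It was at 888, 721, 976, 263 and 266 CPM in controls, and day 7 libraries 6 and 7, at 262 and 299, were below the other 5, at 569 to 857. Its day 14 libraries were close together at 502, 411, 420 and 430 CPM. The log2 difference for day 14 against control was -0.50 ± 0.38 (edgeR adjusted p = 0.435). Day 14 against control differences were -0.03 ± 0.28 for the phosphatase Dusp1 (adjusted p = 0.947), 0.17 ± 0.42 for Cxcr4 (0.819), -0.23 ± 0.14 for the death gene Bcl2l11 (0.338), -0.18 ± 0.25 for Txnip (0.674), -0.33 ± 0.19 for the NF-kB inhibitor Nfkbia (0.296) and -0.20 ± 0.17 for the mRNA decay factor Zfp36 (0.494). The signs for Dusp1, Ncoa2, Ncor1, Txnip and Zfp36 turned when libraries were scaled by their totals, which raised the median of all genes by 0.203.

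**Figure D4:**
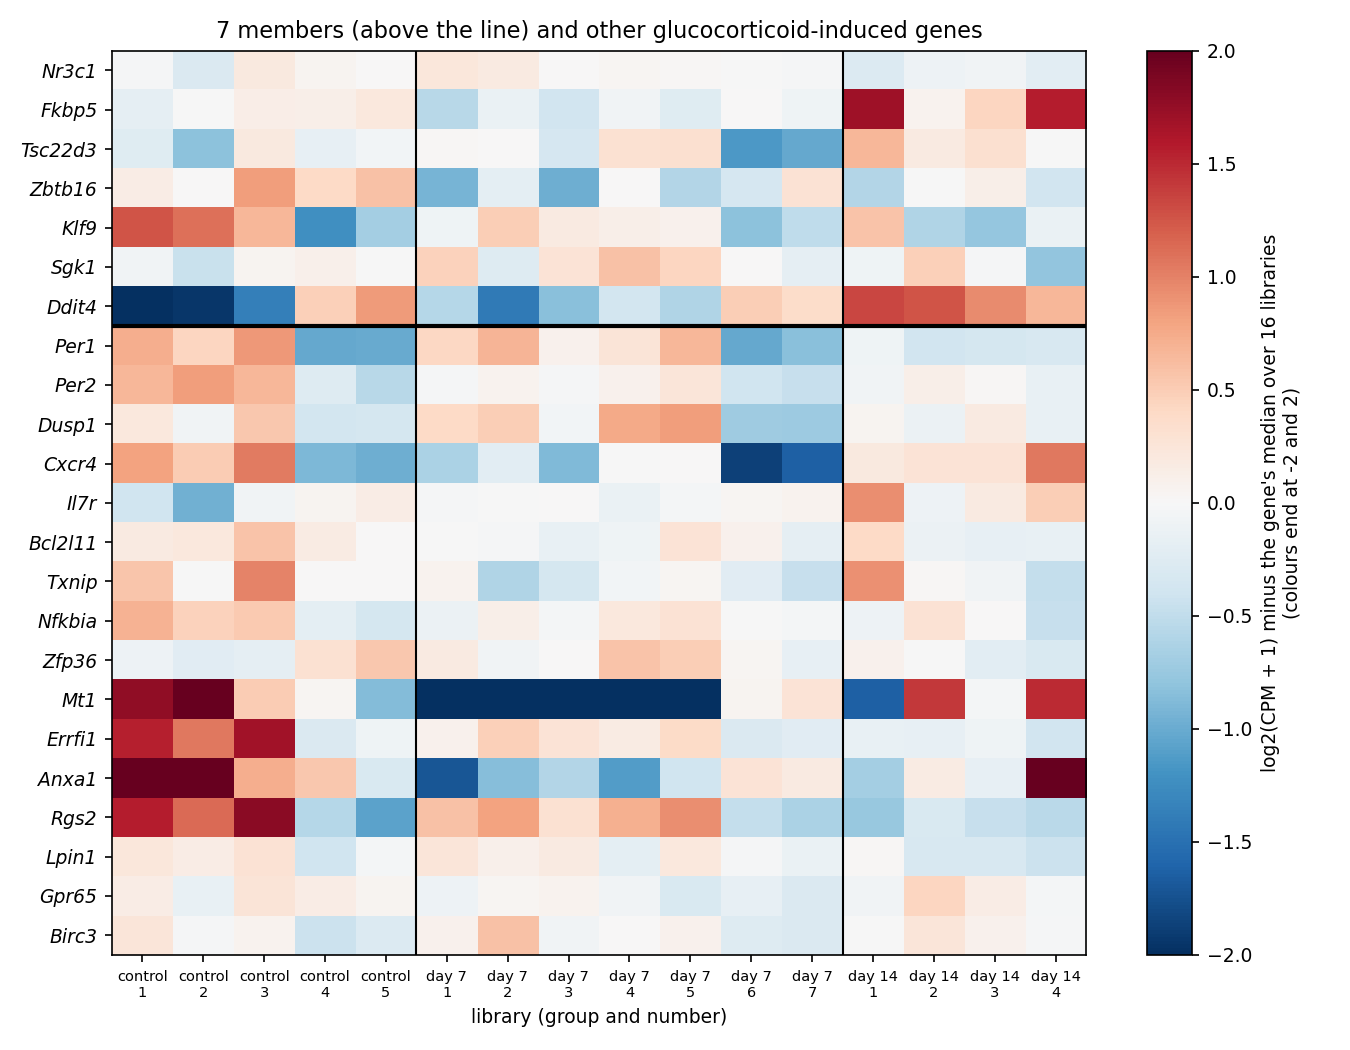
Each gene's log2(CPM + 1) minus its median over the 16 libraries (colour), for the 7 members above the line and the 16 other glucocorticoid-induced genes whose mean reached 10 CPM below it; columns are libraries by group and number. Per1, Rgs2 and Klf9 are high in control libraries 1 to 3 and low in controls 4 and 5 and day 7 libraries 6 and 7, where Ddit4 is high; Anxa1 is high in control libraries 1 and 2 and day 14 library 4, and Mt1 in those and in day 14 library 2.

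Of the genes that glucocorticoids hold down, Icam1, the adhesion molecule that NF-kB induces, rose at day 14. Its control levels were 24.9, 21.3, 17.9, 26.6 and 28.3 CPM, day 7 levels ran from 16.8 to 24.0, and day 14 levels were 30.0, 55.7, 43.7 and 38.9. Every day 14 library was above every other library, with library 1 the lowest of the 4. The log2 change was 0.82 ± 0.17 against control (edgeR adjusted p = 0.0221) and 1.07 ± 0.16 against day 7 (adjusted p = 0.00383). The first call was lost without day 14 library 3 (adjusted p = 0.0860) or control library 3 (0.0577). It was also lost in a fit to the 2 groups alone (edgeR adjusted p = 0.103) and with the replicate block (0.0665). The second call was kept in all 21 alternative fits. An antisense transcript, Gm47079, overlaps 511 bases of the exons of Icam1, and another, Gm42686, overlaps 553 bases of those of Abcb1a. Il2, the T cell growth factor, was at 0.259 CPM in controls and 0.589 at day 14, a log2 difference of 1.17 ± 1.02 (edgeR adjusted p = 0.487). Ifng, the type 1 helper cytokine, differed by 0.15 ± 0.39 (adjusted p = 0.821). The list had medians of -0.25 for day 7 against control, 0.15 for day 14 against control and 0.44 for day 14 against day 7, over 13 genes tested. Over all genes the medians were 0.07, 0.12 and 0.12. Several of the 13 had group means under 1 CPM, such as Il5, Il13 and Csf2. Their log2 differences for day 14 against day 7 were 2.41 ± 1.36, -0.68 ± 1.30 and -0.12 ± 1.04 (SE).

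**Figure D5:**
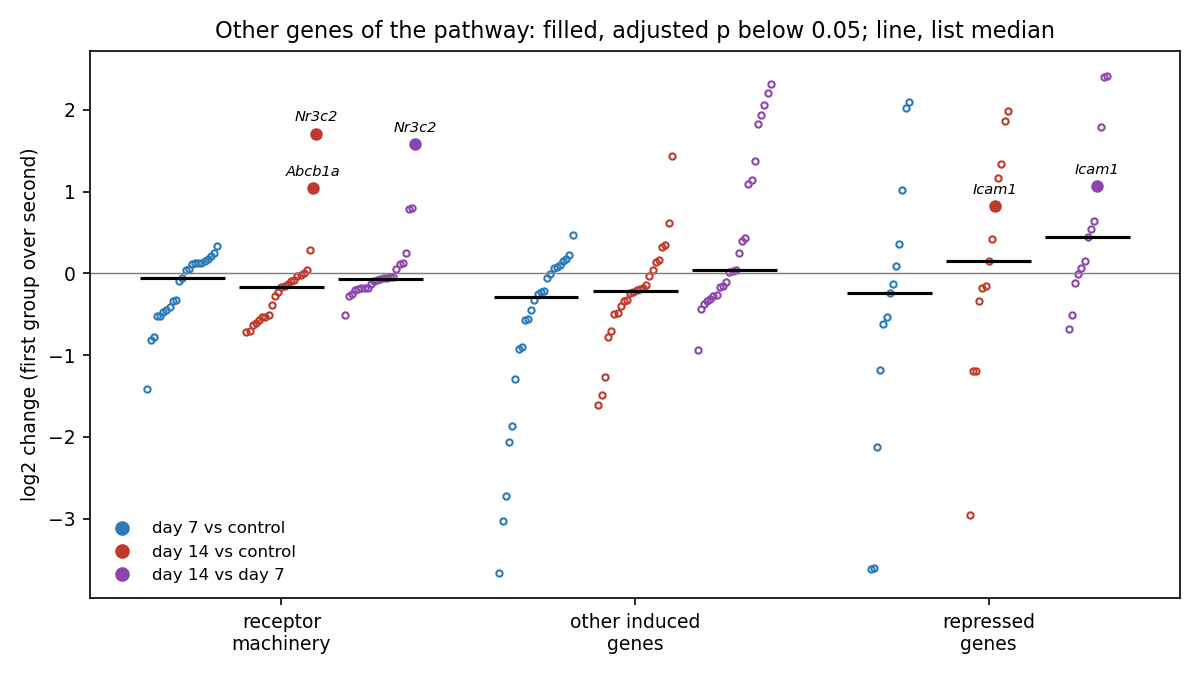
Log2 difference of each tested gene of the 3 pathway lists in the 3 comparisons; points are genes, lines are list medians, and filled points passed an adjusted p of 0.05 in edgeR. Nr3c2 and Abcb1a among the receptor machinery and Icam1 among the repressed genes are filled, and no gene of the other induced genes is.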

How the data were processed

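RNA of spleen CD4 T cells was sequenced from 100 ng per library with a NuGEN kit, per the labels' protocols. The table the authors deposited holds raw counts of reads, 1 row for each of 23479 genes and 1 column for each of 16 libraries. The 5 closing lines that name no gene were left out of every fit. The largest, for reads that fell outside gene models, made up 47.06% to 69.78%. Counting with HTSeq 0.6.1 on build mm10, trimming with cutadapt 1.8.1 and bcl2fastq 2.20.0.422 are recorded per the submitters' processing notes. Not given in the sources used here are the aligner, annotation, read layout and strand setting. Each library was taken as 1 mouse, as the design text counts mice; p-values measure the spread between these libraries.

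The counts were fitted with edgeR 4.0.16, with limma 3.58.1 under R 4.3.3. Low genes were removed by filterByExpr (5049 removed, 18430 kept), followed by TMM scaling, a quasi-likelihood fit over all 16 libraries without covariates, and Benjamini-Hochberg adjustment at 0.05. Libraries of a group varied by 54.5% (edgeR's common biological coefficient of variation). The standard error of each log2 change was derived from the F statistic, as the size of the change over the root of F. The test was tried on simulated counts with known changes. Correlations used log2(CPM + 1) with a pseudocount of 1 and exact permutation tests. Exon lengths and positions are GENCODE's for GRCm38; promoter windows are RefSeq's for GRCm38.p6.

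The members and lists were chosen with earlier results of these data known. Named genes were all members, up to 6 called genes per list, direction and comparison, a fixed panel of pathway genes, and the 6 genes most like Fkbp5, passing over predicted genes. Replicate numbers were not used as a block, since same-numbered libraries did not deviate together. Alternatives were RLE and library-total scaling, 2 other filters, DESeq2 1.42.0, limma-voom, fits to the 2 compared groups, a replicate block, and leaving out each library; leaving out control libraries 1 and 2 or day 14 libraries 1 and 4 and a Ddx3y covariate were added after seeing the data. Figures were drawn with Matplotlib 3.10.9 in Python 3.11.15.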

Additional observations from a re-analysis of the deposited data

Results flagged for a closer look

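In the day 7 group the Hsp90ab1 level of library 4, 2210 CPM, lay far above those of the other 6, 1412 to 1695 CPM. In the same group the Nr3c2 level of library 2, 4.31 CPM, lay far above the others, 1.72 to 2.45 CPM. At day 14 the Cxcr4 level of library 4, 205.4 CPM, stood apart from 113 to 120 CPM in the other 3, and the Bcl2l11 level of library 1, 60.7 CPM, from 40.5 to 42.3 CPM. Dixon's criterion was applied to 78 groups and marked these 4, and chance marks about 1 in 20 groups. The effect of the lymphoma against control differed between the 2 times for Nr3c2, by 1.58 on the log2 scale, and for Icam1, by 1.07, in edgeR's test of day 14 against day 7, which is the test of that difference because both times share the controls. For Nr3c2 the adjusted p was 0.0499, and the call was lost in 9 of the 11 fits that left out 1 library, with the replicate block (0.220), without a filter (0.0626) and without day 14 libraries 1 and 4 (0.672).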

How the results depend on the processing

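The 21 log2 differences of the members were recomputed under 441 alternatives, and 435 moved by less than 1 SD between libraries. The 6 others were Nr3c1 under library totals (0.0386 for day 14 against control, -0.0726 against day 7), Fkbp5 without day 14 libraries 1 and 4 (0.22 and 0.46), Klf9 for day 14 against day 7 without them (-0.70) and Ddit4 with the replicate block (2.15). Some members vary widely between libraries, so even a change of sign can stay within 1 SD. For day 14 against control Klf9 went from -0.69 to 0.04 without control libraries 1 and 2. Sgk1 went from 0.02 to -0.20 without day 14 library 2. Ddit4 fell from 1.39 to 0.83 without control libraries 1 and 2. Scaling by library totals moved the median of all genes by 0.203 for day 14 against control and 0.162 against day 7, and leaving out control libraries 1 and 2 moved the first by 0.139. Genes called for day 7 against control numbered 2, and 1575 by DESeq2, 4 with only these 2 groups, 398 with the Ddx3y covariate, 0 without control libraries 1 and 2, and 0 to 1455 leaving out 1 library. For day 14 against control they numbered 577, and 381 without a filter, 1564 by DESeq2, 1003 by limma-voom, 4 with only these 2 groups, 942 without control libraries 1 and 2, 15 without day 14 libraries 1 and 4, and 65 to 1458 leaving out 1 library. The split was 246 higher and 331 lower, 690 and 100 with library totals, and 289 and 250 with RLE. For day 14 against day 7 they numbered 178, and 681 by DESeq2, 712 with only these groups, 10 without day 14 libraries 1 and 4, 1014 with the Ddx3y covariate, and 25 to 377 leaving out 1 library. The split was 76 higher and 102 lower, 150 and 41 with library totals, and 87 and 72 with RLE. Pathway genes called for day 7 against control were 0, and 10 by DESeq2, 4 with the Ddx3y covariate, and 0 to 11 leaving out 1 library, with 11 without control library 5. For day 14 against control they were 3, and 5 under library totals, 8 by DESeq2, 0 with only these 2 groups, and 0 to 10 leaving out 1 library. For day 14 against day 7 they were 2, and 1 without a filter, 4 by DESeq2, 4 with the Ddx3y covariate, 1 without day 14 libraries 1 and 4, and 1 to 2 leaving out 1 library. With the replicate number as a block, genes called were 35, 46 and 28 and pathway genes 1, 0 and 2 for the 3 comparisons in this order. The pathway genes were Mt1 at day 7 against control (adjusted p = 0.0261) and Mt1 and Icam1 at day 14 against day 7 (0.0463 each), and Mt1, a gene outside the naming rule, was not called by edgeR's fit without the block. Same-numbered libraries correlated between -0.343 and 0.295 and only 1 library correlated best with its own number, so the numbers were not taken as pairs. Among the named pathway genes, none of the day 14 against control differences that turned sign passed the test. These were Ncoa2 (0.0251 with RLE, 0.176 with library totals, 0.0250 with DESeq2, -0.115 to 0.0829 leaving out 1 library), Ncor1 (0.0345 with library totals, 0.0125 without day 14 libraries 1 and 4), Dusp1 (0.0286 with RLE, 0.174 with library totals, 0.00560 with at least 1 CPM in 4 libraries, 0.0286 with DESeq2, 0.00180 with limma-voom, 0.0224 without day 14 libraries 1 and 4, -0.113 to 0.2001 leaving out 1), Cxcr4 (-0.0342 without day 14 libraries 1 and 4, -0.0885 to 0.504 leaving out 1), Txnip (0.0460 with library totals, -0.513 to 0.108), Zfp36 (0.00734 with library totals) and Ifng (-0.0430 to 0.478). The correlation of Nr3c1 with Fkbp5 at day 7 ran from -0.75 to 0.017 leaving out 1 library. The causes were not tested. Levels near or below 1 CPM, such as those of Il2, rest on few reads. Nr3c2 had 12 to 98 reads in the control and day 7 libraries and 87 to 161 in those of day 14.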

Other observations

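The split of the control and day 7 libraries seen in Klf9 and Per1 also appeared in Rgs2, a regulator of G protein signalling, and Errfi1, a feedback inhibitor of the EGF receptor, both chosen after their values were seen. Rgs2 was at 427, 316, 504, 95.5 and 67.3 CPM in control libraries 1 to 5 and at 177 to 273 CPM in day 7 libraries 1 to 5, against 102 and 91.6 in libraries 6 and 7. Errfi1 was at 32.5, 22.8, 35.7, 8.32 and 9.75 CPM in the controls.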
